A study of Mus musculus with 6 samples.

Results

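Neural progenitor cells (NPCs) are cultured stem-like cells that divide and can give rise to neurons and glia. Here 2 mouse NPC subclones, clone 30 and clone 31, were compared between untreated cells and cells given auxin for 24 h. Both subclones came from embryonic stem cells of the BL/6J x CAST-EiJ hybrid background that had been differentiated in culture, and both carry SPEN-AID, a degron tag on SPEN. Auxin, a plant hormone, makes the cell break down a protein that carries this tag. The 4 libraries were untreated clone 30, untreated clone 31, and the same clones after 24 h of auxin at 500 uM, with n = 2 per group out of 6 libraries in the series. All groups carry the degron and grew in the same medium with EGF and FGF. No untagged line given auxin was analysed here, so effects of auxin itself and of the loss of SPEN cannot be told apart. The replicates are 2 subclones of 1 degron line, per the labels, and the p-values measure only the spread between these libraries. Of the 53801 genes in the files, 15767 had enough counts to be tested.

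SPEN is a very large nuclear RNA-binding protein that recruits histone deacetylase complexes through a domain at its end. It is known for silencing genes on the X chromosome that Xist RNA coats, and for keeping Notch target genes off as a partner of the DNA-binding factor RBPJ. Notch signalling between neighbouring cells is a main means by which neural progenitors stay undifferentiated. RNA levels are given in CPM, counts relative to the library total, which were scaled between libraries by the trimmed mean of M-values (TMM). Differences are log2 changes from edgeR with the clone as a block, which compares each treated library with the untreated library of its own clone. A gene was called when its Benjamini-Hochberg adjusted p was below 0.05.

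The libraries held between 24603816 counts (untreated, clone 30) and 43008978 counts (24 h, clone 31), so 3 counts corresponded to 0.122 CPM in the smallest and 0.070 CPM in the largest. Markers of neural progenitors were well expressed: Nes, an intermediate filament gene, stood at 1302 and 1270 CPM in untreated clones 30 and 31, and Olig2, a progenitor transcription factor gene, at 609 and 692 CPM. Sox1, an early neural factor, was near 0 with 2, 0, 0 and 0 counts over the 4 libraries. Of 9 pluripotency genes 3 had enough counts to be tested, Esrrb at 4.22 to 6.26 CPM, Nanog with 31 to 56 counts per library and Klf2 with 0 to 31, while Pou5f1 had 0 counts in each of the 4 libraries. The endoderm list had 0 of 6 members with enough counts to be tested. Of 13 tested NPC identity genes 0 were called in either direction, and their median log2 change was 0.06.

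At 24 h 140 genes were called (0.888% of those tested), of which 55 were higher (0.349%) and 85 lower (0.539%). Among called genes of at least 5 CPM the largest falls included those of Rph3a, Tnr and Lrrc4c, which encode proteins of synapses or of the extracellular matrix. The rises were led by Tnfsf18, Hopx, Dusp15 and Pak6, with Spen itself among them. The median log2 change over all tested genes was -0.001. The 140 called genes moved the same way in both clones in every case, which a test that blocks on the clone favours by its construction. Of them 85 passed 1.5-fold in both clones (26 higher, 59 lower), 31 passed it in 1 clone and 24 in neither. In 87 of the 140 the levels of the untreated and 24 h groups did not overlap (31 higher, 56 lower), as was the case for 25.5% of all genes tested (12.4% higher, 13.1% lower). These calls rest on the block and on the 4 libraries: without the block edgeR called 0 genes (284 had an unadjusted p under 0.05), and it also called 0 when the 48 h libraries were added to the blocked fit (988 unadjusted). With the block on the same 4 libraries DESeq2 called 186 genes and limma voom 94. Of the called genes that the naming rule picks, Jag2, Ntm, Fas, Kdr and Cdc42ep2 lost the call in both of these tools. Nrxn2, Ndrg1, Apoe, Grik2, Sez6 and Ankrd33b kept it in DESeq2 and lost it in limma voom. The common biological coefficient of variation was 0.0674, against 0.266 without the block and 0.121 with all 6 libraries.

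**Figure D1:**
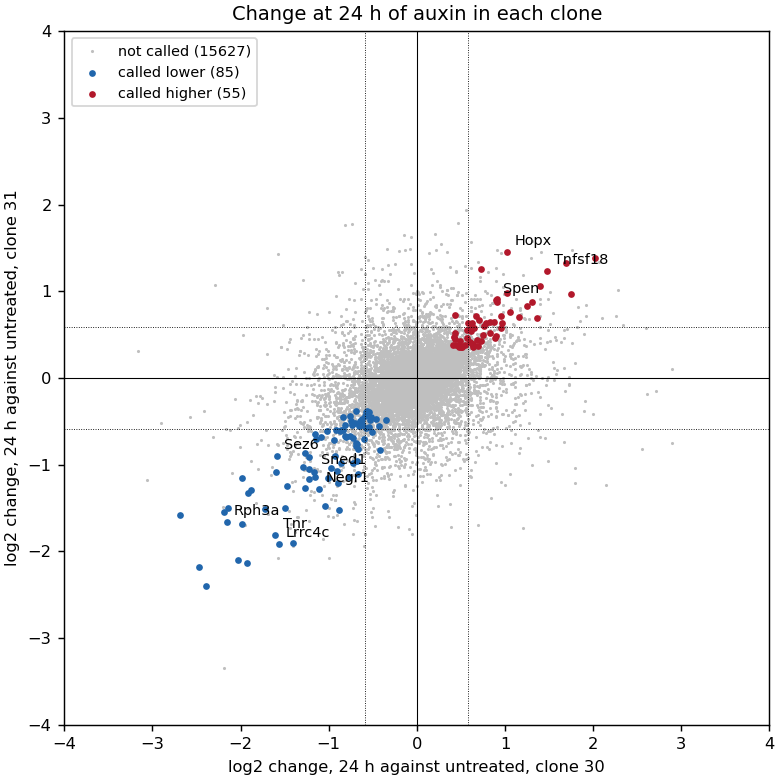
Each point is 1 of the 15767 tested genes, placed by its log2 change from untreated to 24 h in clone 30 (x axis) and clone 31 (y axis). Dotted lines mark 1.5-fold. The 140 called genes (55 higher, 85 lower) lie in the 2 quadrants where both clones moved the same way.

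Spen, the tagged gene (ENSMUSG00000040761, chromosome 4, 141467890 to 141538597, mm10), stood at 93.3 and 115 CPM in untreated clones 30 and 31 and at 174 and 215 CPM after 24 h. Both treated libraries lay above both untreated libraries. The log2 change was 0.90 ± 0.07 (SE), with 0.90 in each clone (edgeR adjusted p = 0.00282). Since the tag targets SPEN protein for breakdown, its RNA level is no readout of depletion. Fitted with the 48 h libraries the change was 0.91 with an adjusted p of 0.204. Of the other 14 genes on the list of SPEN partners, which holds subunits of the NCoR and NuRD corepressor complexes and RNA-methylation cofactors, 0 were called. Hdac3, the deacetylase of the NCoR complex, stood at 126 and 129 CPM untreated and 119 and 129 CPM at 24 h. Rbm15, which like SPEN binds Xist RNA, had 32.6 and 39.1 CPM untreated and 46.6 and 43.9 CPM at 24 h (log2 0.34, adjusted p = 0.143).

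The 250 bases before the RefSeq start of Spen are shown because the gene rose and because they hold a match to the RBPJ core motif GTGGGAA. Srxn1, described below, is shown with them for its matches to the antioxidant response element, the site bound by NRF2 (TGACNNNGC or TGAGNNNGC). Capitals mark matches to either motif on either strand, in RefSeq sequence of GRCm38.p6 at chr4:141538598-141538847 (minus strand) and chr2:152105274-152105523 (plus strand).
Spen: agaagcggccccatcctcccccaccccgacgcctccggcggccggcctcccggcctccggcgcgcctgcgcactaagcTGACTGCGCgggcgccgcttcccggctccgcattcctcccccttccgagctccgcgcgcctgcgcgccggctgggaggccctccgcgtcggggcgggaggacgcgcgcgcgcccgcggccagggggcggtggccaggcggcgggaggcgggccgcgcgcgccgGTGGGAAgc
Srxn1: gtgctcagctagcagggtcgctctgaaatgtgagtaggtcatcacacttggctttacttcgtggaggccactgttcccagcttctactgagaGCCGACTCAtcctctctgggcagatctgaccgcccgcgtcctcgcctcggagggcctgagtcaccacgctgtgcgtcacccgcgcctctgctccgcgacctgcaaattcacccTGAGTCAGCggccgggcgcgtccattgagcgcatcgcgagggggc
The RBPJ match in Spen began 9 bases before the start and its antioxidant match 172 bases before it, and the Srxn1 matches began 158 and 45 bases before the start. The RBPJ motif occurred in 5.43% of the 20499 mouse promoters of this length, in 5.47% of those of tested genes, in 5 of the 48 matched promoters of genes called higher and in 3 of the 55 of genes called lower. The antioxidant motif occurred in 23.6% of all promoters, in 2879 of the 11076 promoters of tested genes, in 19 of 48 of those called higher (39.6%) and in 6 of 55 of those called lower (10.9%). Among 11 promoters of tested Notch pathway genes, 3 held the RBPJ motif (Hes5, Hey2 and Lfng), and these genes were not called. Nrarp, a Notch feedback gene, and the Notch ligand gene Jag2 were called higher and had no match to either motif. Among 11 promoters of tested NRF2 targets, 7 held the antioxidant motif. Besides Srxn1 these were Gclm, G6pdx, Osgin1, Pir, Prdx1 and Slc7a11, which were not called. A match is a description of the letters only.

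Among the genes of the Notch pathway 2 of 14 tested members rose and 0 fell, beside 0.349% and 0.539% of all genes tested, and the list's median was 0.12 (0.01 in clone 30, 0.21 in clone 31). Nrarp, which dampens Notch signalling in a feedback loop, rose from 11.7 to 19.4 CPM in clone 30 and from 4.38 to 10.5 CPM in clone 31. Its levels in the groups overlapped, since treated clone 31 lay below untreated clone 30 (log2 0.97 ± 0.14, adjusted p = 0.0335). Jag2, a Notch ligand gene, rose from 0.608 and 0.399 CPM to 2.08 and 1.08 CPM (log2 1.61 ± 0.28, adjusted p = 0.0465), low levels that did not overlap. That call was lost on the same libraries in DESeq2 with the block (adjusted p = 0.314) and in limma voom (0.0581). The principal Notch effector Hes1 stood at 35.7 and 51.8 CPM untreated and 41.6 and 46.4 CPM at 24 h, so the clones went in opposite directions (log2 0.02, adjusted p = 0.935). Hes5, another effector of the pathway, went from 8.07 to 4.81 CPM in clone 30 and from 0.772 to 2.77 CPM in clone 31. The ligand gene Dll3 had log2 changes of -1.01 and -0.44 in the clones and was not called (adjusted p = 0.0638).

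Xist, the noncoding RNA of the inactive X chromosome (X, 103460375 to 103483217), stood at 712 and 859 CPM untreated and at 1032 and 1156 CPM at 24 h. Both treated libraries were above both untreated ones, and the change just missed the threshold (log2 0.48 ± 0.09, adjusted p = 0.0527). Of the 547 X-linked genes tested 0 were called higher and 4 lower, beside 0.349% and 0.539% of all genes tested. Their median log2 change was -0.02. Of the 8 genes on the list of those that escape X inactivation 0 were called (median 0.04). The counts do not separate the parental alleles, so the active and the inactive X chromosome are summed.

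Genes lower in both clones formed the larger class: 299 genes (1.90% of those tested) were lower by over 1.5-fold in both, and 111 (0.704%) were higher by as much in both. This split has no test, since each clone had 1 library per time. Most of these genes were low, with median levels of 0.776 CPM in the lower class and 0.74 CPM in the higher. A mean of 5 CPM was reached by 54 of the 299 and by 20 of the 111. Rph3a, a binding partner of the synaptic vesicle protein Rab3 (chromosome 5, 120940499 to 121010092), had the largest fall among those of at least 5 CPM. It went from 23.3 to 5.19 CPM in clone 30 and from 7.45 to 2.32 CPM in clone 31 (log2 -1.96 ± 0.15, adjusted p = 0.00282). The treated libraries both lay below the untreated ones.

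Lrrc4c, which encodes the netrin-G1 ligand of synapses (chromosome 2, 96318169 to 97631666), went from 35.3 to 11.9 CPM in clone 30 and from 13.1 to 3.42 CPM in clone 31 (log2 -1.72 ± 0.12, adjusted p = 0.00215). Clone 30 held more of it at both times, and the groups still did not overlap. Of the other 3 tested genes of the netrin-G list, Ntng2, Lrrc4 and Lrrc4b, 0 were called, with log2 changes of -0.43, -0.08 and -0.09.

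Tnr, the matrix protein tenascin R of perineuronal nets (chromosome 1, 159523769 to 159931729), fell from 9.04 and 11.7 CPM to 2.93 and 3.28 CPM (log2 -1.73 ± 0.14, adjusted p = 0.00326). Both treated libraries lay below both untreated ones. Of the 10 tested lecticans, tenascins and their partners Tnr alone was called, beside 0.539% of all genes tested called lower. Sned1, another secreted matrix protein gene (chromosome 1, 93235841 to 93301065), fell from 107 to 47.9 CPM in clone 30 and from 202 to 95.5 CPM in clone 31 (log2 -1.12 ± 0.07, adjusted p = 0.00215).

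The IgLON family, small adhesion proteins anchored to the neuronal surface by a lipid, had 3 of 5 tested members lower and 0 higher. Their median log2 change was -0.55 (-0.54 in clone 30, -0.56 in clone 31), beside 0.539% of all tested genes called lower. Like the other lists used here, this one was chosen with earlier results of these data known. Negr1 (chromosome 3, 156561794 to 157316445) fell from 23.3 and 23.7 CPM to 10.7 and 9.68 CPM (log2 -1.21 ± 0.10, adjusted p = 0.00392), with the clones nearly equal at both times. Opcml (chromosome 9, 27790775 to 28925410) fell from 61.3 and 72.1 CPM to 42.2 and 48.8 CPM (log2 -0.55 ± 0.07, adjusted p = 0.0194). Ntm, the neighbouring gene on chromosome 9 (28994750 to 29963141), fell from 12 to 7.25 CPM in clone 30 and from 4.16 to 2.09 CPM in clone 31 (log2 -0.84 ± 0.14, adjusted p = 0.0466; DESeq2 0.101 and voom 0.0568). Lsamp had a log2 change of -0.34 (adjusted p = 0.0637), and Iglon5 had a log2 change of 0.10 (adjusted p = 0.61).

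Among the neurexins and neuroligins, which face each other across the synapse, 2 of 6 fell and 0 rose (median -0.21), beside 0.539% and 0.349% of all genes tested. Nrxn3 (chromosome 12, 88722876 to 90334935) fell from 8.76 to 2.33 CPM in clone 30 and from 2.27 to 0.891 CPM in clone 31 (log2 -1.70 ± 0.20, adjusted p = 0.0168). Nrxn2 fell by less, from 142 and 163 CPM to 111 and 116 CPM (log2 -0.42 ± 0.07, adjusted p = 0.0479). Nrxn2 lost the call in limma voom with the block (adjusted p = 0.0553). Of the 4 SynCAM genes 0 were called, with a median of -0.34 and all 4 below 0 in both clones, as were 31.3% of all genes tested. Cadm2 went from 25.5 and 19.0 CPM to 15.9 and 6.03 CPM (log2 -1.14 ± 0.22, adjusted p = 0.0838). Of 8 contactins and Caspr proteins 0 were called (median -0.26), and of 11 Lrrtm, Slitrk and Lrfn organisers 0 were called (median 0.06).

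Of 21 tested glutamate receptor genes, a list drawn up after the values were seen, 4 fell and 0 rose, beside 0.539% and 0.349% of all genes tested, with a median of -0.23 in clone 30 and -0.22 in clone 31. Grm4, a metabotropic receptor gene, fell from 70.1 and 71.1 CPM to 45.6 and 49.0 CPM (log2 -0.58 ± 0.07, adjusted p = 0.0193). The kainate receptor gene Grik2 fell from 23.2 and 19.4 CPM to 13.8 and 13.7 CPM, and Grik1 from 1.30 and 0.698 CPM to 0.301 and 0.117 CPM. In these 3 genes the groups did not overlap, as was the case for 13.1% of all genes tested on the lower side. Grik1 had only 12 and 5 counts at 24 h and no adjusted p in DESeq2 with the block. Grik2 lost the call in limma voom with the block (adjusted p = 0.0536). The AMPA receptor genes Gria3 and Gria4 had log2 changes of 0.03 and 0.14 and were not called.

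The rest of the largest falls had other roles. Ctnna2, a neuronal alpha-catenin that ties cadherins to actin (chromosome 6, 76881637 to 77979699), fell from 39.5 to 13.9 CPM in clone 30 and from 12.4 to 4.34 CPM in clone 31 (log2 -1.51 ± 0.10, adjusted p = 0.00215). Erbb4, a neuregulin receptor gene, fell from 20.1 to 7.25 CPM and from 8.02 to 3.35 CPM (log2 -1.38 ± 0.12, adjusted p = 0.00591), and the other 5 tested neuregulins and ErbB receptors were not called. Dpp6, an auxiliary subunit of A-type potassium channels, fell from 64.8 to 26.8 CPM and from 11.3 to 4.67 CPM, a log2 change of -1.27 in each clone. Sez6, a neuronal surface protein, was at 124 and 123 CPM untreated and at 41.1 and 65.7 CPM at 24 h, with log2 changes of -1.59 in clone 30 and -0.90 in clone 31 (adjusted p = 0.041). It kept the call in 5 of 17 alternatives. The remaining named falls were Megf11, Spef1 and the noncoding genes Gm43672 and Gm15663, with log2 changes of -1.17, -1.09, -1.16 and -1.05.

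**Figure D2:**
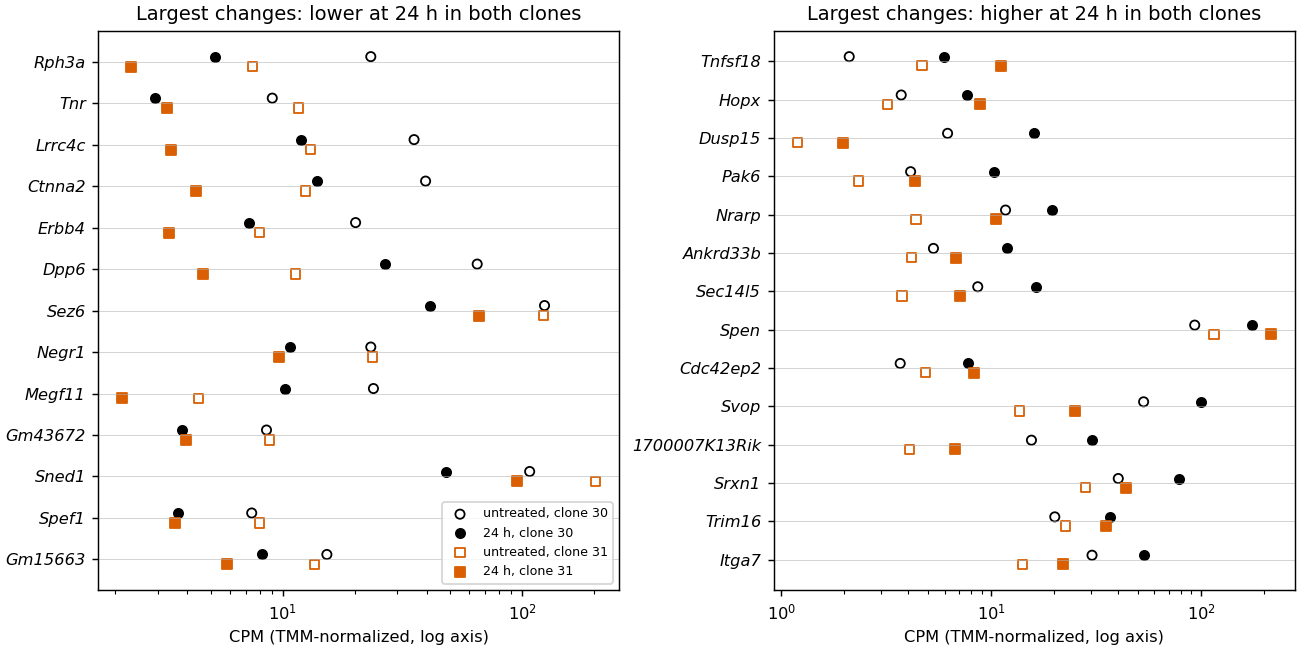
CPM (log axis) of 13 of the 14 largest falls (left) and 14 largest rises (right) among called genes of at least 5 CPM that passed 1.5-fold in both clones; open symbols are untreated and filled symbols 24 h, circles clone 30 and squares clone 31. In each gene the filled symbol of a clone lies to the same side of its open symbol, while the level itself can differ more between clones than between times, as in Dpp6 (64.8 and 11.3 CPM untreated).

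Several of these falls were in very long genes, and genes were therefore grouped by genomic span, the distance from the start to the end of the gene. Of 170 tested genes of 500 kb and over, 16 were called lower (9.41%) and 0 higher, beside 0.539% and 0.349% of all genes tested. Their median log2 change was -0.22, with -0.18 in clone 30 and -0.32 in clone 31. Of these 170 genes 97 (57.1%) were below 0 in both clones and 38 passed 1.5-fold lower in both, beside 31.3% and 1.90% of all genes tested. Among the 16 were Nrxn3, Lrrc4c, Opcml, Ctnna2, Erbb4, Astn2, Ntm, Dpp6, Dpyd, Negr1, Grik2, Pcdh11x, Cadps2, Syt1 and Edil3. Among 1924 genes of 100 to 500 kb 25 were called lower (1.30%) and 6 higher. Among 8616 genes of 10 to 100 kb 31 were lower and 32 higher, and among 5057 genes under 10 kb 13 were lower and 17 higher. The median level also differed between these groups, with 14.9 CPM in the longest and 37.8 CPM at 10 to 100 kb, and the part of level in the counts was not tested. The span was looked at because earlier results of these data held long genes.

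**Figure D3:**
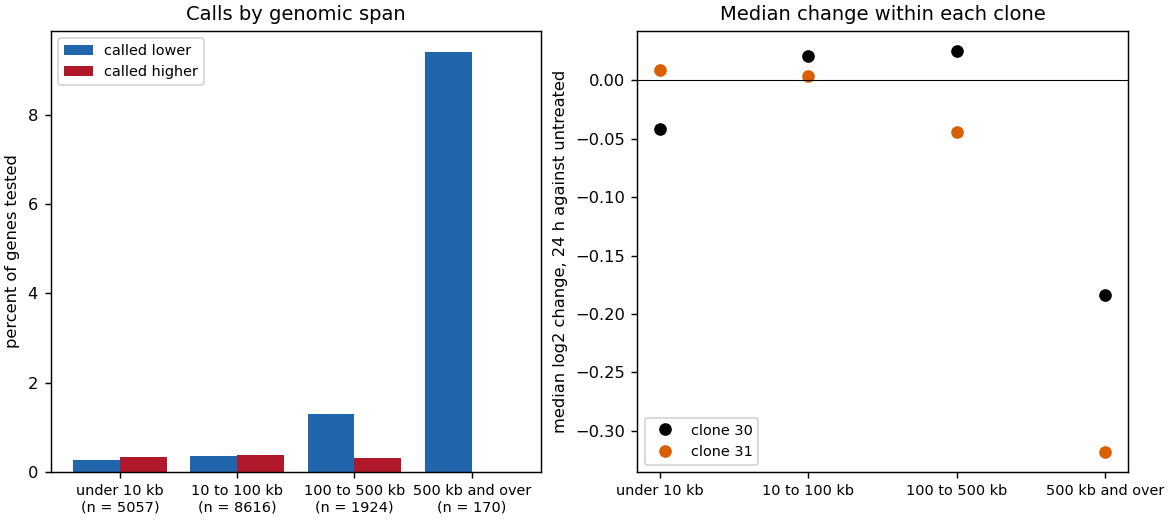
Left, percent of tested genes called lower or higher at 24 h in each group of genomic span, with the number of genes under each. Right, median log2 change within clone 30 and clone 31. Genes of 500 kb and over stand out with 9.41% called lower, 0 called higher and a median of -0.18 and -0.32 in the clones.

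Astn2, a membrane protein of migrating neuroblasts that was outside the rule for named genes (chromosome 4, 65380803 to 66404611), fell from 67.7 and 59.5 CPM to 47.5 and 38.5 CPM (log2 -0.57 ± 0.07, adjusted p = 0.0194). Lsamp was a gene of this length that was not called. Syt1, the calcium sensor of vesicle release and the only one of 13 tested neuron markers that was called, fell from 0.648 to 0.100 CPM in clone 30 and from 6.08 to 2.04 CPM in clone 31. In clone 30 Syt1 had only 16 counts untreated and 4 at 24 h. The other neuron markers did not pass and went both ways: 7 of the 13, Syt1 included, were below 0 in both clones and 5 above 0 in both. Map2 stood at 1093 and 818 CPM untreated and 941 and 691 CPM at 24 h, and the growth cone gene Gap43 at 128 and 50.7 CPM untreated and 147 and 64.2 CPM at 24 h (log2 0.27, adjusted p = 0.132). The summed level of the tested neuron markers was 1307 and 929 CPM untreated and 1165 and 809 CPM at 24 h, and Map2 made up most of it. Without Map2 the other 12 summed to 214 and 111 CPM untreated and 224 and 118 CPM at 24 h. In such bulk samples fewer cells of a type and less RNA per cell cannot be told apart, and the part of neuron-like cells in the falls was not tested. Other marker lists moved in few members, and of all genes tested 0.349% were called higher and 0.539% lower. Apoe was the only 1 of 10 tested astrocyte markers that was called (209 and 28.7 CPM untreated, 141 and 22.0 CPM at 24 h). Apoe lost the call in limma voom with the block (adjusted p = 0.05085). Of 6 oligodendrocyte and 9 mesenchymal markers 0 were called. Summed mesenchymal markers differed between clones (25.9 and 144 CPM untreated) more than between times (27.0 and 117 CPM at 24 h). The endothelial receptor gene Kdr rose from 2.76 and 1.40 to 6.64 and 2.53 CPM (edgeR adjusted p = 0.0465, DESeq2 0.147, voom 0.0574). Of the 7 microglia and endothelial markers listed only 2 were tested, and the other was below 0 in both clones and not called. Ptprc, Cdh5 and Aif1 had too few counts to be tested.

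Of the rises, Tnfsf18, a cytokine gene of the tumour necrosis factor family (chromosome 1, 161494655 to 161505290), had the largest log2 change among those of at least 5 CPM. It rose from 2.11 to 5.97 CPM in clone 30 and from 4.68 to 11.1 CPM in clone 31 (log2 1.34 ± 0.15, adjusted p = 0.0153). Hopx, a homeodomain protein without DNA binding of its own and a marker of some neural stem cells (chromosome 5, 77086988 to 77115121), rose from 3.73 and 3.21 CPM to 7.65 and 8.88 CPM (log2 1.27 ± 0.16, adjusted p = 0.0188). Both genes had all treated libraries above all untreated ones. Svop, which encodes a transporter-like vesicle protein, rose from 53.3 to 100 CPM in clone 30 and from 13.7 to 25.1 CPM in clone 31 (log2 0.90 ± 0.07, adjusted p = 0.00381). Its clones differed by more than the treatment, so the groups overlapped although the changes were alike (0.91 and 0.88). Dusp15, a phosphatase gene, and Pak6, a kinase gene, rose with log2 changes of 1.16 and 1.12, and Cdc42ep2, an effector of the GTPase CDC42, with 0.90. The others in the group were Ankrd33b (0.94), Sec14l5 (0.92), 1700007K13Rik (0.86) and the laminin receptor subunit gene Itga7 (0.74).

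NRF2 switches on genes that repair oxidative damage, and 2 of its 16 listed targets rose while 0 fell, with a median log2 change of 0.17 and 14 of 16 above 0. Of all genes tested 0.349% were called higher, 0.539% lower and 49.6% were above 0. Srxn1, which repairs peroxiredoxins (chromosome 2, 152105516 to 152111376), rose from 40.3 and 28.1 CPM to 78.5 and 43.7 CPM (log2 0.80 ± 0.09, adjusted p = 0.0168). Trim16 rose from 20.1 and 22.6 CPM to 37.0 and 35.4 CPM (log2 0.76 ± 0.09, adjusted p = 0.0177). In both genes the groups did not overlap. Gclc, a subunit of the enzyme that limits glutathione synthesis, had log2 0.38 (adjusted p = 0.0541) and the thioredoxin reductase gene Txnrd1 0.34 (adjusted p = 0.0947). Nqo1, a much used NRF2 reporter gene, had log2 0.10 (adjusted p = 0.64).

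All 16 listed targets of p53, the regulator that answers DNA damage, had fitted log2 changes above 0, of which 13 were above 0 in each clone, and the median was 0.30 (0.40 in clone 30, 0.22 in clone 31). Of all genes tested 49.6% were above 0 and 31.9% above 0 in both clones. Of these members 2 were called, beside 0.349% of all genes called higher. Phlda3, an inhibitor of AKT signalling, rose from 98.7 and 55.0 CPM to 133 and 78.8 CPM (log2 0.47 ± 0.07, adjusted p = 0.0339), and the death receptor gene Fas from 12.1 and 4.06 to 20.5 and 6.17 CPM (log2 0.69 ± 0.12, adjusted p = 0.0465; DESeq2 0.0952 and voom 0.0553). The cell cycle inhibitor gene Cdkn1a stood at 665 and 416 CPM untreated and at 762 and 503 CPM at 24 h, and was not called (adjusted p = 0.208). The immediate early genes, first responders to growth signals, were above 0 in 13 of 13 tested members, in 11 of them in both clones, with a median of 0.31, and 0 were called. Jun was the closest, at 109 and 163 CPM untreated and 217 and 229 CPM at 24 h (adjusted p = 0.0527).

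Spry1, an inhibitor of growth factor signalling through ERK, rose from 89.1 and 138 CPM to 166 and 193 CPM (log2 0.69 ± 0.10, adjusted p = 0.0339). It was the only 1 of 12 tested ERK feedback genes that was called, beside 0.349% of all genes tested called higher. The list's median was 0.62 in clone 30 and 0.05 in clone 31. Dusp4, a phosphatase of ERK, had log2 changes of 1.10 in clone 30 and -0.07 in clone 31, and Spry4 of 0.96 and -0.04. The difference between the clones in these lists was not tested.

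Hypoxia targets, which the factor HIF switches on at low oxygen, lay below 0 in 12 of 12 tested members, and in 10 of them in both clones. Of all genes tested 50.1% were below 0, and 31.3% in both clones. Their median was -0.53, with -0.83 in clone 30 and -0.19 in clone 31. Ndrg1 was the only one called, beside 0.539% of all genes tested called lower. It went from 14.7 to 8.32 CPM in clone 30 and from 27.5 to 18.9 CPM in clone 31 (log2 -0.66 ± 0.11, adjusted p = 0.0411). Ndrg1 lost the call in limma voom with the block (adjusted p = 0.0520). Pdk1, a pyruvate dehydrogenase kinase gene, went from 79.2 to 24.1 CPM in clone 30 and from 83.8 to 55.2 CPM in clone 31 (adjusted p = 0.101). The glycolytic gene Pgk1 went from 486 to 271 CPM and from 430 to 373 CPM (adjusted p = 0.178). Cholesterol synthesis genes were above 0 in 14 of 14 members by small amounts (median 0.14), beside 49.6% of all genes tested, and 0 were called. Of 14 S-phase genes 0 were called (median -0.03), and of 14 mitosis genes 0 (median -0.11).

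**Figure D4:**
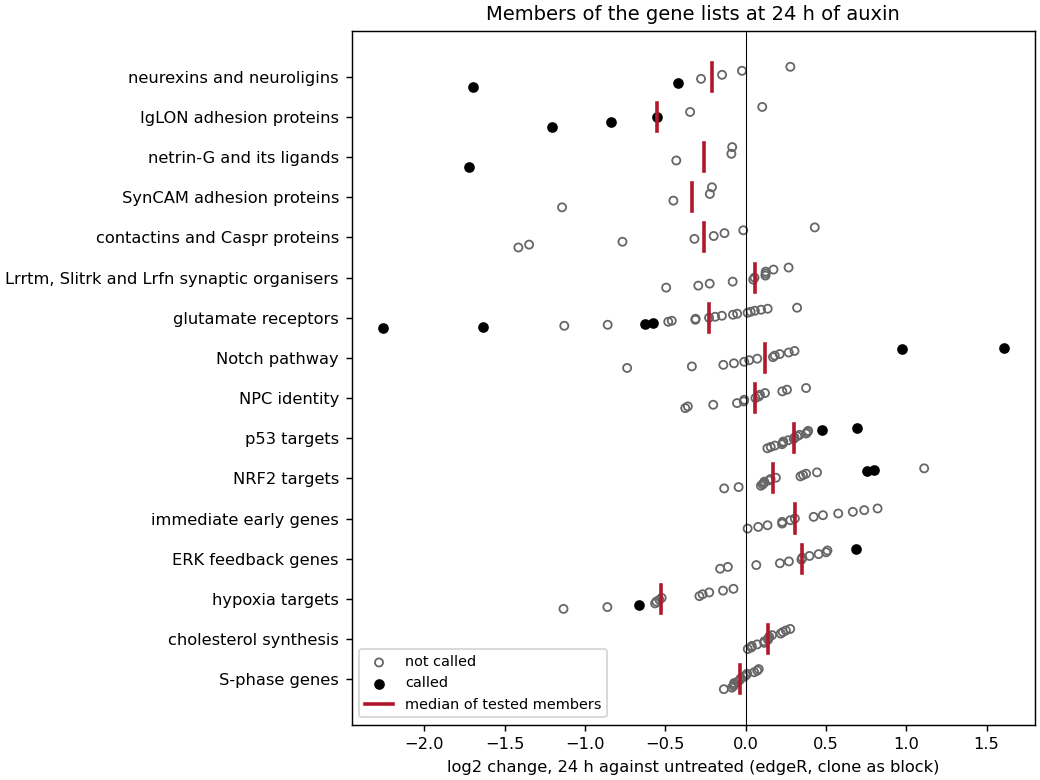
Fitted log2 change of each tested member of 16 gene lists (x axis); filled points passed the test, open points did not, and the red bar is the list's median. Members of the IgLON, neurexin, netrin-G, SynCAM, contactin and glutamate receptor lists reach far to the left. Members of the p53, immediate early and cholesterol synthesis lists all lie to the right of 0, and those of the hypoxia, netrin-G and SynCAM lists all to the left.

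Changes of 1 clone were set apart by size, as genes past 1.5-fold in 1 clone and within 1.2-fold of no change in the other. In clone 30 there were 257 such genes higher and 352 lower, and in clone 31 122 higher and 191 lower. Most were low, with median levels of 1.03 and 1.12 CPM in the clone 30 classes and 0.515 and 0.833 CPM in the clone 31 classes. Of all these genes 0 were called, and the blocked test again disfavours them by its construction. Clone 30 moved more in general: 1693 genes passed 1.5-fold in it and 1129 in clone 31, with median absolute log2 changes of 0.17 and 0.12. The untreated library of clone 30 was the shallowest of the 4, and the part of depth in this was not tested. A term for the difference between clones at 24 h, fitted on all 6 libraries, called 0 of 16007 genes (65 at an unadjusted p under 0.05; DESeq2 0 and 7). That fit has 1 residual degree of freedom, which is the clone difference in the 48 h response. A clone difference at 48 h therefore enters its error, and 0 calls do not show that the clones responded alike. The genes below are therefore a description of single libraries, with ratios of counts per total whose intervals cover counting error only.

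In clone 30 Fam167a stood at 10.0 CPM untreated and 29.6 CPM at 24 h, a ratio of 2.96 (95% interval 2.57 to 3.4), beside 5.46 and 5.91 CPM in clone 31. Akap12, a scaffold for protein kinases, stood at 83.5 and 187 CPM in clone 30 and at 256 and 282 CPM in clone 31. Gbx2, a patterning homeobox gene, stood at 10.9 and 24.8 CPM in clone 30 and at 19.0 and 20.7 CPM in clone 31. Cemip, a hyaluronan-degrading protein gene, had a ratio of 2.31 in clone 30 and the noncoding gene Gm16010 one of 2.46. In these 5 genes clone 31 stayed within 1.2-fold by the choice of the class. Lower in clone 30 were Ndrg2, an astrocyte-enriched gene, at 124 and 57.0 CPM beside 37.9 and 37.5 CPM in clone 31, and Mmd2 at 22.9 and 7.40 beside 4.36 and 4.45 CPM. The neuronal glucose transporter gene Slc2a3 had a ratio of 0.445 in clone 30 and 0.872 in clone 31, and Retreg1 and Lypd1 had 0.326 and 0.454 in clone 30.

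In clone 31 Fgfr3, a receptor for fibroblast growth factors, stood at 107 CPM untreated and 194 CPM at 24 h, a ratio of 1.80 (95% interval 1.74 to 1.87), beside 156 and 148 CPM in clone 30. Ttyh1, a membrane protein of neural stem cells, stood at 46.7 and 81.8 CPM in clone 31 and at 232 and 193 CPM in clone 30. The potassium channel gene Kcnj16, the phosphodiesterase gene Pde1b and Fam181a had ratios of 1.92, 1.85 and 1.67 in clone 31. Lower in clone 31 were Adamts5, a matrix protease gene, at 86.5 and 44.5 CPM beside 26.2 and 23.1 CPM in clone 30, and Syt13 at 22.5 and 11.4 CPM beside 8.63 and 8.62 CPM. The X-linked kinase genes Pak3 and Nrk and the glycogen phosphorylase gene Pygm had ratios of 0.578, 0.579 and 0.605. Opposite changes past 1.5-fold in both clones were seen in 45 genes that were higher in clone 30 and 37 that were higher in clone 31, and 0 of these reached an average of 5 CPM.

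The levels at 48 h of auxin, scaled over all 6 libraries, are set beside those at 24 h for some of the called genes; both times share the untreated libraries. Lrrc4c stood at 35.2 and 12.9 CPM at 48 h, within 1 CPM of its untreated levels of 35.3 and 13.1 CPM. Tnr at 8.02 and 12.5 CPM and Sned1 at 102 and 183 CPM also lay nearer to their untreated than to their 24 h levels. Negr1 stood at 8.83 and 8.32 CPM, Rph3a at 5.82 and 1.73 CPM and Opcml at 37.6 and 50 CPM, near or below their 24 h levels. Among the rises, Srxn1 stood at 39.1 and 30.6 CPM and Svop at 65.0 and 15.9 CPM, below their 24 h levels. Nrarp stood at 35.9 and 29.1 CPM, Hopx at 9.83 and 9.64 CPM and Spen at 200 and 259 CPM, above them. Tnfsf18 stood at 0.938 and 0.226 CPM at 48 h, below even its untreated levels of 2.11 and 4.68 CPM. Pak6 at 3.265 and 2.11 CPM and Spry1 at 58.45 and 17.82 CPM also lay below their untreated levels.

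**Figure D5:**
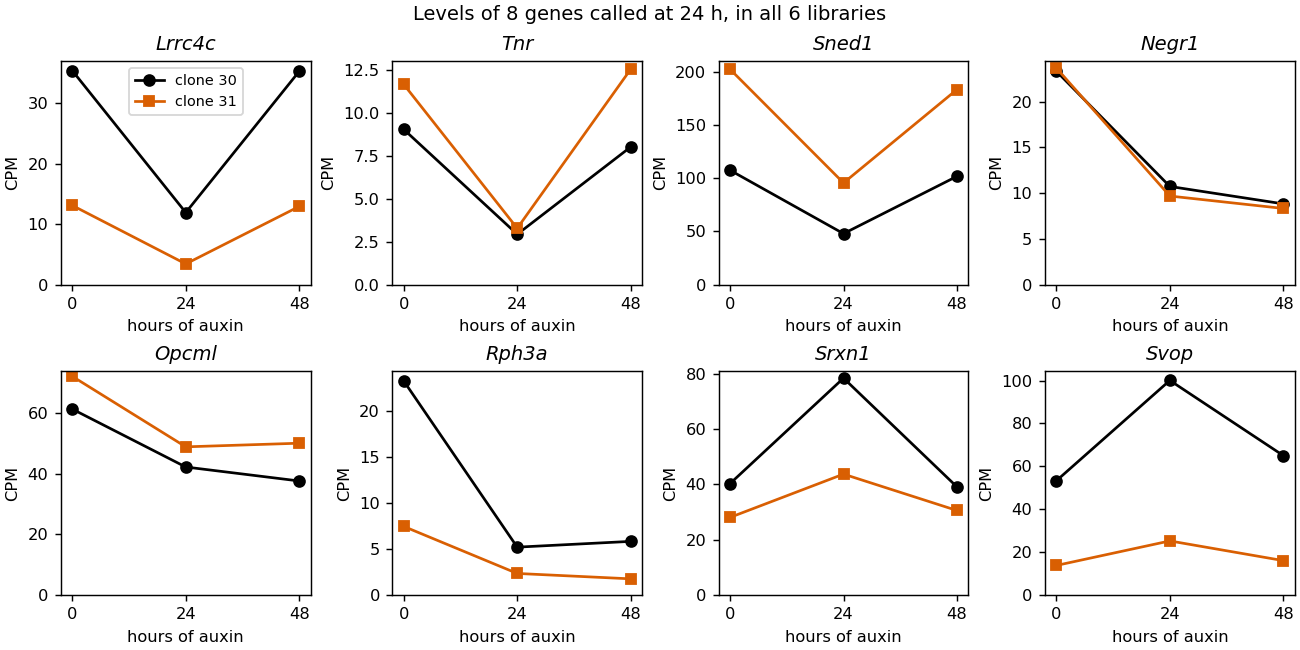
CPM in each clone (circles clone 30, squares clone 31) at 0, 24 and 48 h of auxin for 8 called genes; the 48 h points are scaled over all 6 libraries, and each point is 1 library. Lrrc4c, Tnr and Sned1 are low at 24 h and near their untreated level at 48 h, while Negr1, Opcml and Rph3a are low at both times.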

How the data were processed

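RNA-seq was read as 100-base pairs from TruSeq libraries of NPCs, per the labels' protocols. For every gene the authors deposited unnormalized read-pair counts, from featureCounts 1.6.1 with exons as features and the reverse-strand setting, on the Ensembl release 92 annotation of GRCm38, per the file headers; the submitters' processing notes name mm10, R 3.4.2 and DESeq2. The headers name duplicate-free alignments in a folder called STAR. The other column used is each gene's exon length in bp (unit other), also deposited, per the file headers. Genes with the chromosome label MT summed to 0 counts in all 4 libraries. Whether this reflects the labels or reads removed before counting was not tested, so it is no measure of mitochondrial RNA. Symbols were matched for 53620 of 53801 identifiers, and 181 had none.

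Genes kept by filterByExpr entered a robust quasi-likelihood test (edgeR 4.0.16, R 4.3.3; 2-sided, TMM scaling, Benjamini-Hochberg adjusted p below 0.05) on the 4 libraries with clone and treatment as terms, which leaves 1 residual degree of freedom. Clone numbers in the titles tie libraries to the same subclone, and deviations of same-numbered libraries from their group means correlated at 0.82 across genes. Standard errors are the log2 change over the square root of F. Within-clone log2 changes used a prior count of 2. The clone difference was fitted on 6 libraries with treatment, clone and a clone-by-24 h term. Alternatives used DESeq2 1.42.0, limma 3.58.1 voom, other scalings, filters, prior counts, thinning, exon length and GC trends, no block, 6 libraries, and each library left out. Scripts were tested on simulated data.

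The comparison, members, lists and named-gene rule were chosen with earlier results of these data known. The rule names Spen and Xist; the 14 largest rises and falls among called genes with at least 5 CPM and past 1.5-fold in both clones; the 5 largest changes of 1 clone, each direction, with at least 10 CPM; 3 opposite changes each way (0 reached the minimum); and called members of lists, or up to 4 by smallest p. Other genes named were chosen after their values were seen, as were the glutamate receptor list and the combined length and GC trend. Some genes that the rule names are left out of the text and figures. Promoters come from RefSeq (GRCm38.p6). Depth and intervals cover counting error only.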

Additional observations from a re-analysis of the deposited data

Results flagged for a closer look

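In 7 gene lists the median log2 change at 24 h lay on opposite sides of 0 in the 2 clones, and the difference was not tested in any of them. In 5 of the 7 a median was at least 0.1 from 0 in 1 of the clones; the X escape genes (0.06 in clone 30, -0.005 in clone 31) and the S-phase genes (-0.065 and 0.02) stayed below that. The X-inactivation centre had a median of 0.205 in clone 30 and -0.079 in clone 31, although Xist itself was higher in both (0.54 and 0.43). The NPC identity genes had -0.057 in clone 30 and 0.112 in clone 31. The astrocyte markers had -0.26 and 0.042, with Apoe lower in both clones (-0.57 and -0.38) and Aldoc at -0.38 and 0.30. The oligodendrocyte markers had -0.368 and 0.207, with the myelin enzyme gene Cnp at -0.83 and 0.03. The interferon response genes had 0.192 and -0.258. Each of the 5 lists has few tested members (6 to 13), and 1 library stands for each clone and time.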

How the results depend on the processing

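The 140 calls depended on the processing. Of 43 named called genes 0 changed sign under any of the 17 alternatives. All 43 lost the call without the replicate block and with 6 libraries. Called genes moved the same way in both clones, so a change of sign on the same counts was unlikely from the start. With the block kept on the same 4 libraries, calls lost were 11 of 43 in limma voom, 5 of 42 in DESeq2, 7 of 42 at 1 CPM, 6 of 43 with length and GC trends removed and at most 1 in the others. For genes called at 24 h the number was 306 with DESeq2 size factors (140 higher), 401 with upper-quartile scaling (143 higher), 1265 with no filter beyond 1 count (641 higher), 354 with every library thinned to the lowest total (169 higher) and 433 with the exon length trend removed (205 higher). They numbered 0 with no replicate block (0 higher) and 0 with 6 libraries and the replicate block. Leaving out each library in turn in that 6-library fit gave 0 to 1 calls; the 1 came without the untreated library of clone 31, and in the 4-library blocked fit a library left out leaves no residual degree of freedom. The cause was not tested. Genes of 500 kb and over called lower (16) numbered 27 with DESeq2 size factors, 39 with upper-quartile scaling, 61 with no filter, 31 thinned and 38 with the length trend removed. They numbered 0 with no replicate block, with 6 libraries and with each library left out (0 to 0). The median log2 change of genes of 500 kb and over ran from -0.303 to -0.166 over all alternatives. Genes past 1.5-fold the same way in both clones went from 410 to 193 (51 higher) with at least 1 CPM required, since fewer genes are tested, and 319 to 468 otherwise. The clone difference called 0 genes in edgeR (65 at an unadjusted p under 0.05) with either scaling and in DESeq2 (7 unadjusted). Counts under 3 per library (0.070 to 0.122 CPM) limit what can be said of the lowest genes.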

Other observations

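Among called genes outside the gene lists, chosen after their values were seen, some encode parts of the vesicle cycle. Sv2c, a synaptic vesicle glycoprotein gene related to Svop, rose from 24.9 to 38.4 CPM in clone 30 and from 6.33 to 9.54 CPM in clone 31 (log2 0.61 ± 0.10, edgeR adjusted p = 0.0381). Cadps2, which primes dense-core vesicles, fell from 11.4 and 8.39 CPM to 7.12 and 4.92 CPM (log2 -0.72 ± 0.12, adjusted p = 0.0465). Fat1, a giant protocadherin gene, rose from 377 and 435 CPM to 669 and 622 CPM (log2 0.67 ± 0.10, adjusted p = 0.0281), and Fjx1, related to a kinase of Fat cadherins, rose from 84.3 and 91.5 to 118 and 117 CPM (adjusted p = 0.049). Piezo1, a mechanically gated channel gene, rose from 99.3 and 99.0 CPM to 155 and 130 CPM (adjusted p = 0.0409).

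Igfbp5, a secreted binding protein of insulin-like growth factors, was the most abundant of the called falls described, from 500 and 373 CPM to 235 and 232 CPM (log2 -0.89 ± 0.10, adjusted p = 0.0168). The long noncoding RNAs Miat and Neat1 fell, Miat from 92.7 and 14.7 to 42.0 and 8.96 CPM and Neat1 from 18.2 and 21.8 to 11.6 and 15.4 CPM. Neat1 and Cadps2 were not called by DESeq2 or limma voom with the block. The histone genes Hist2h2be and Hist1h1c fell with log2 changes of -0.92 and -0.55. Bnip3l, a receptor for the removal of mitochondria, and Gbe1, the glycogen branching enzyme, fell with log2 changes of -0.47 and -0.57.

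In the remaining lists 0 members were called: amino acid and ER stress response (13 tested, median 0.07), heat shock genes (7, 0.06), interferon response (6, 0.10), Id genes and BMP feedback (7, -0.25), aryl hydrocarbon receptor targets (3, 0.04), pluripotency markers (3, 0.47) and the X-inactivation centre (6, 0.04). Over all genes tested the median was -0.001.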
